A study of Drosophila melanogaster with 12 samples.

Results

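The nuclear genes of oxidative phosphorylation were taken as those whose FlyBase symbol begins with ND-, UQCR or ATPsyn, with COX and a digit, or with Sdh and one of the letters A to D, leaving out symbols that end in L. This took 66 of the 17023 gene identifiers with counts. Among them, 4 whose symbols end in L and a digit are paralogs and were set apart, which left 62 subunits: 33 of complex I, 4 of complex II, 6 of complex III, 8 of complex IV and 11 of complex V. With 20 paralogs whose symbols end in L, those 4 made 24 testis-type paralogs, described at the end. The rule also left out ND-MNLL, a complex I subunit whose own name ends in L. It had 0 counts in all 12 libraries, and its exons are covered in full by CG45089 on the same strand.

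Oxidative phosphorylation runs on the inner mitochondrial membrane. Complex I takes electrons from NADH and complex II from succinate, complex III passes them to cytochrome c, complex IV hands them to oxygen, and complex V, the ATP synthase, uses the proton gradient that complexes I, III and IV build to make ATP. Every complex except complex II also holds subunits made from the mitochondrial genome, so nuclear and mitochondrial products must be matched. In the *Drosophila* ovary, ATP synthase has been tied to the maturation of mitochondrial cristae as germ cells differentiate, and mitochondria expand during egg development. The 13 subunits of the mitochondrial genome were listed at 0 in every library, and they were not analysed here.

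Ovaries were dissected from 1 to 3 days after eclosion, and 3 genotypes were profiled, each with a transgene driven in the germline by NosGAL4. In the UAS-tkv line the driven gene is a BMP receptor, and these ovaries are enriched for germline stem cells (enriched GSCs). In the bam RNAi line the differentiation factor bam is targeted, and the ovaries are enriched for the daughters of the stem cells (enriched CBs). The aramis RNAi line targets aramis, which encodes an RNA helicase. Both RNAi lines also carried UAS-Dicer2, which UAS-tkv did not, and somatic cells remain in every sample. For each genotype there were 2 replicates, each with an input library, made from 20% of the lysate kept back before the gradient, and a polysome library, 12 libraries in 6 groups. The fractions differed in their extraction as well, TRIzol for input and acid phenol-chloroform for polysomes, and in a comparison of the fractions extraction and polysome association cannot be told apart. No source used here says that the replicates were separate cultures, so the p-values measure the spread between these samples, which may be technical.

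The libraries held from 3131667 counts (aramis RNAi polysome replicate 2) to 15039925 counts (bam RNAi polysome replicate 2). In input, aramis (symbol ais) stood at 8.50 to 11.2 CPM in aramis RNAi against 20.7 to 34.2 CPM in the other genotypes, bam at 2.48 to 3.55 CPM in bam RNAi against 8.21 to 8.23 CPM in UAS-tkv and 0.590 to 0.702 CPM in aramis RNAi, and tkv at 246 to 271 CPM in UAS-tkv against 105 to 202 CPM in the others. The replicates of bam RNAi polysome stood apart from each other: cytosolic ribosomal protein mRNAs took 33.0% of the counts of replicate 1 and 9.32% of those of replicate 2, so results on that group are given with and without replicate 1. Summed markers of muscle sheath were 41517 to 43572 CPM in aramis RNAi input, 14106 to 24109.8 CPM in bam RNAi input and 6769 to 14915 CPM in UAS-tkv input, with none of the 10 at 0. CPM stands for counts per 1000000 counts, with library sizes scaled by TMM (trimmed mean of M values), which sets the bulk of genes equal between libraries. The 7 hemocyte markers summed to 4853 to 5208 CPM in aramis RNAi input against 470.3 to 1112 CPM in UAS-tkv input. The 4 germline markers, aub, AGO3, bgcn and rhi, summed to 69.8 to 78.8 CPM in aramis RNAi input against 478 to 555 CPM in UAS-tkv input. The list had also named vas and nos, which were not matched among the identifiers. In bulk ovaries, fewer cells of a type and less RNA per cell cannot be told apart, and the part of these cell types in the results below was not tested.

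Of the 62 subunits, 60 passed the filter on low counts. UQCR-14, the counterpart of a small complex III subunit, had 0 counts in every library, and its exons are covered in full on the opposite strand by CG32576. ND-B8, a small complex I subunit, had 0 to 7 counts per library. Whether counting used strand is not given in the sources used here, and 20 of the 62 subunits share over 5% of their exon bases with a gene on the other strand. Their counts may include reads of the neighbour or miss their own. Those described below are UQCR-6.4 (40.5% shared), ND-B22 (26.1%), ND-B16.6 (17.5%), COX7C (15.7%), SdhD (13.9%), ND-B14 (12.9%), ND-13A (12.4%), SdhB (10.6%), ND-B18 (8.06%), ATPsynbeta (8.01%) and ND-ASHI (5.56%), with ND-B8, UQCR-14 and ND-MWFE (19.8%) among those not tested or low.

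Per exon length, taken as the union of a gene's annotated exons, subunits of complexes IV and V were far more abundant than those of complexes I, II and III. In TPM, counts divided by exon length and scaled to a sum of 1000000 within a library, the median subunit of complex IV stood at 768 ± 43.7 (SD, n = 2) in UAS-tkv input, 860 ± 119 in bam RNAi input and 1000.35 ± 44.7 in aramis RNAi input. The median subunit of complex V stood at 778 ± 77.3, 817 ± 114 and 881 ± 30.1 TPM in the same order. Those of complex I were 222 ± 8.28, 232 ± 1.54 and 213 ± 5.68 TPM. Complex II gave 233 ± 12.5, 237 ± 31.8 and 289 ± 22.9 TPM, and complex III gave 309 ± 3.46, 313 ± 21.1 and 317 ± 19.1 TPM. The medians include the 2 subunits that did not pass the filter, UQCR-14 of complex III at 0 TPM and ND-B8 of complex I. Without UQCR-14 the medians of complex III would be higher. Every input library had its medians of complexes IV and V above those of the other complexes. Complexes IV and V differed by less than the replicate spread in UAS-tkv and bam RNAi, as did complexes I and II, while complex III lay above both by more than its spread in UAS-tkv.

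Single subunits spanned a wide range within a complex. ATPsynC, which forms the proton-carrying ring of the ATP synthase, was the most abundant subunit, with a mean of 2812 TPM over the 6 input libraries. COX7B led complex IV at 1396 TPM and ND-MLRQ complex I at 1178 TPM. The human counterpart of ND-MLRQ has been assigned to complex IV. UQCR-C1, a core protein, led complex III at 573 TPM, and the membrane anchor SdhC led complex II at 304 TPM. The lowest of complex I that passed the filter were ND-AGGG and ND-MWFE at 31.6 and 29.2 TPM.

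Together the subunits took 1.81% and 1.92% of the counts in the UAS-tkv input libraries and 3.10% and 3.32% in the polysome libraries. In bam RNAi they took 1.63% and 2.23% in input against 3.98% and 2.79% in polysomes. In aramis RNAi they took 2.0% and 1.96% in input against 2.27% and 2.75% in polysomes. All 6 polysome libraries lay above all 6 input libraries, and the gap was narrowest in aramis RNAi.

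**Figure D1:**
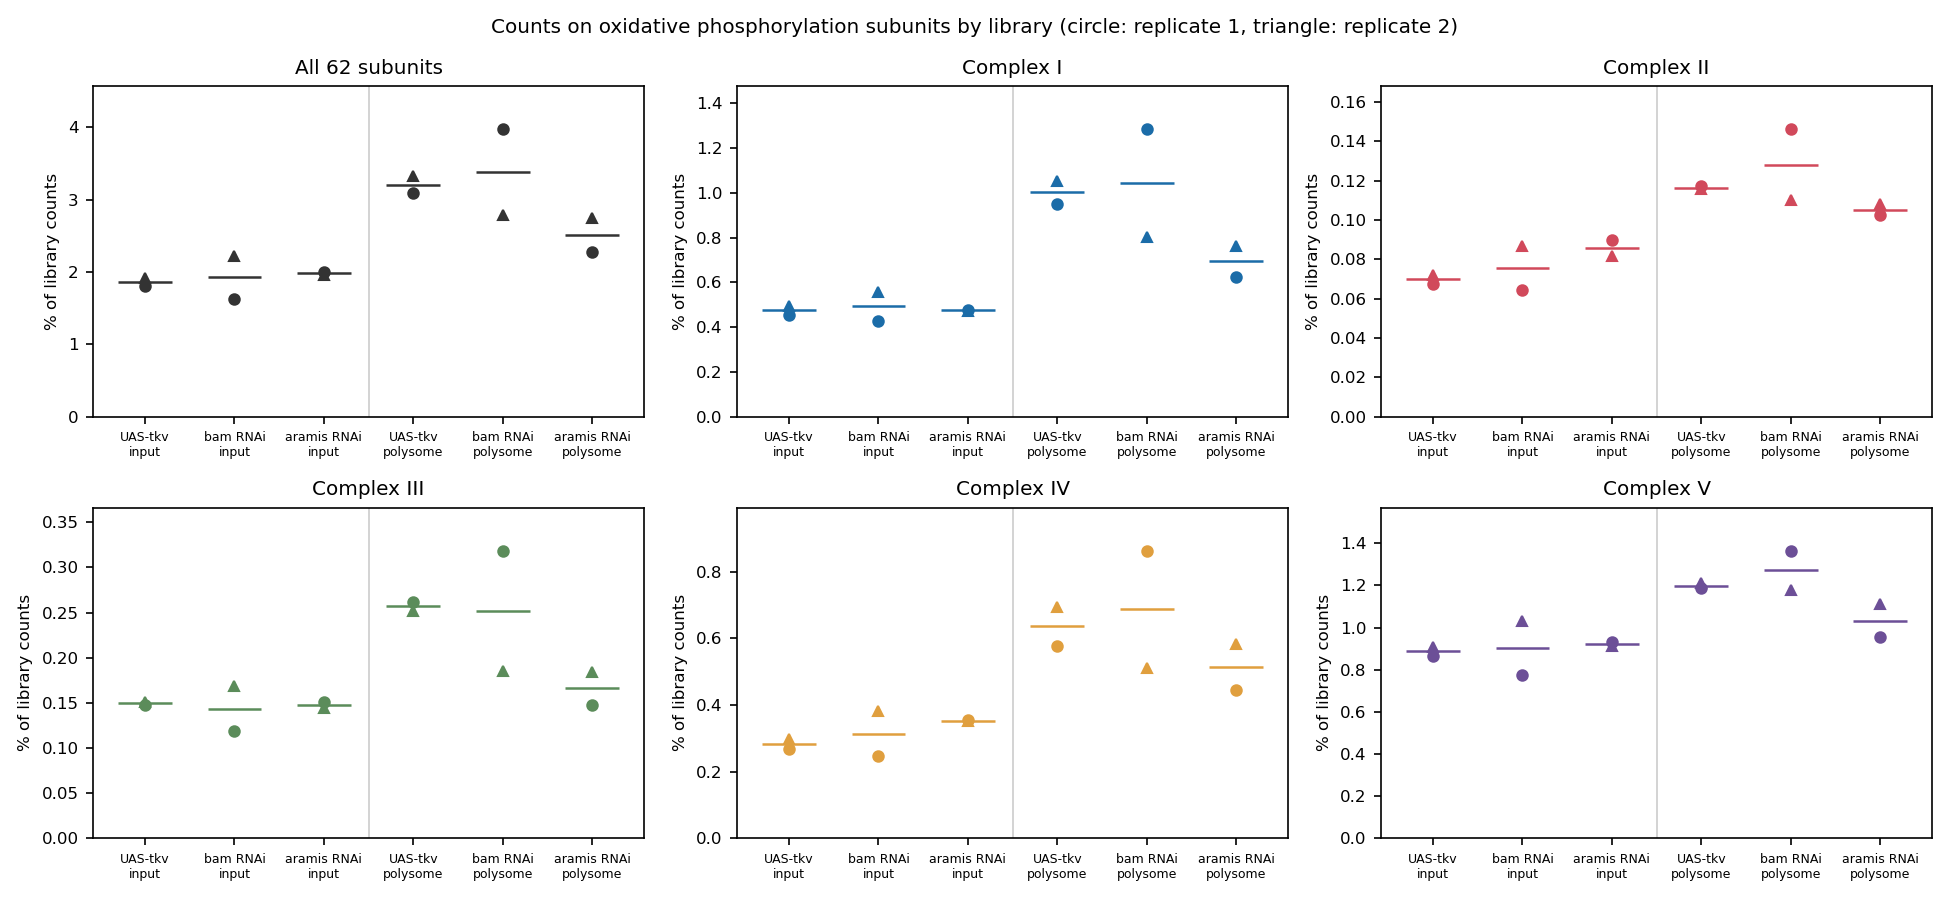
Share of each library's counts (%, vertical axis) that fell on all 62 subunits and on each complex, by group (horizontal axis), with a circle for replicate 1, a triangle for replicate 2 and a line for their mean. Inputs of the genotypes lie close together for all 62 subunits (1.63% to 2.23%), polysome libraries lie above them (2.27% to 3.98%), and the bam RNAi polysome replicates stand far apart.

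The make-up of these counts shifted between the fractions. Complex V took 46.4% to 47.9% of the subunits' counts in the 6 input libraries and 34.3% to 42.3% in the 6 polysome libraries. Complex I took 23.9% to 26.3% in input and 27.5% to 32.3% in polysomes. The ranges did not overlap for either complex. As shares of the library in UAS-tkv, complex IV was 2.24 ± 0.33 times as high in polysomes as in input and complex I 2.11 ± 0.19 times, against 1.35 ± 0.05 for complex V (SD carried over from 2 libraries a group). In TPM, in which a short mRNA counts as much as a long one, these ratios were 1.71, 1.69 and 1.27. In aramis RNAi the same ratios were 1.46 ± 0.27, 1.46 ± 0.21 and 1.12 ± 0.12. Complexes II and III gave 1.67 ± 0.08 and 1.72 ± 0.05 in UAS-tkv against 1.23 ± 0.09 and 1.12 ± 0.18 in aramis RNAi.

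To ask whether subunit mRNAs differed between the genotypes before translation, the input libraries were compared. All 60 tested subunits had a higher TMM-scaled level in aramis RNAi than in UAS-tkv (39 with library totals, and 57 with TMM without UAS-tkv input replicate 1), with a median log2 difference of 0.56, but none passed the test (edgeR quasi-likelihood, Benjamini-Hochberg adjusted p under 0.05, where 10.1% of all 9745 genes were called higher). At an unadjusted p under 0.05 there were 9 subunits, against 16.4% of all genes, a share near the background, and DESeq2 called 0. In 59 of the 60 both aramis RNAi libraries lay above both UAS-tkv libraries, which held for 37.9% of all genes. With library totals the median over the subunits was 0.12, while the median of all genes moved from -0.04 to -0.48. Relative to that median the subunits lay 0.61 higher with TMM and 0.60 higher with library totals. The call depends on the spread that is assumed, since a fit of these 4 libraries alone called 38 of the 60 higher, beside 21.4% of all genes.

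By complex, the median log2 difference was 0.45 for complex I, 0.76 for complex II, 0.34 for complex III, 0.79 for complex IV and 0.58 for complex V. ATPsynF, a small membrane subunit of the ATP synthase, had the highest value. It stood at 275 and 272 CPM in UAS-tkv input and at 625 and 496 CPM in aramis RNAi input. The groups did not overlap, and the log2 difference was 1.04 ± 0.44 (SE; edgeR adjusted p = 0.125). COX4, the highest of complex IV, stood at 410.4 and 419 CPM in UAS-tkv and at 836 and 759 CPM in aramis RNAi with bam RNAi at 374 and 622 CPM. The aramis RNAi libraries were above the 4 others, and the difference from UAS-tkv was 0.94 ± 0.47 (adjusted p = 0.19).

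The 4 genes of succinate dehydrogenase, complex II, had differences of 0.62 to 0.94. SdhD, a membrane anchor, stood at 109 and 108 CPM in UAS-tkv input and at 223 and 193 CPM in aramis RNAi input, a log2 difference of 0.94 ± 0.39 (adjusted p = 0.123). SdhA, the flavoprotein that oxidises succinate, stood at 226 and 216 CPM against 360.5 and 319 CPM, a difference of 0.62 ± 0.26 (adjusted p = 0.125). SdhB, the iron-sulfur subunit, had the lowest adjusted p of any subunit, 0.0986. For all 4 the groups stood apart without overlap, yet no value passed the threshold.

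At the other end, ND-42 and UQCR-6.4 were near 0. ND-42, an accessory subunit of complex I, stood at 219.6 and 232 CPM in UAS-tkv and at 253 and 232 CPM in aramis RNAi (log2 difference 0.10 ± 0.39, edgeR adjusted p = 0.876). UQCR-6.4, a small subunit of complex III, gave 0.05 ± 0.56 (adjusted p = 0.954). The signs of both small values turned with library totals and when UAS-tkv input replicate 1 was left out. ATPsynbeta, the catalytic subunit of the ATP synthase and the lowest of complex V, stood at 1943 and 1898 CPM in UAS-tkv against 2253 and 2394 CPM in aramis RNAi. Its difference was 0.28 ± 0.35 (adjusted p = 0.623) and fell below 0 with library totals. Complex I had its highest value in ND-B14.5A (0.91 ± 0.39, adjusted p = 0.132) and complex III in UQCR-C2 (0.82 ± 0.40, adjusted p = 0.185), while COX7A was lowest in complex IV (0.50 ± 0.49, adjusted p = 0.518).

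**Figure D2:**
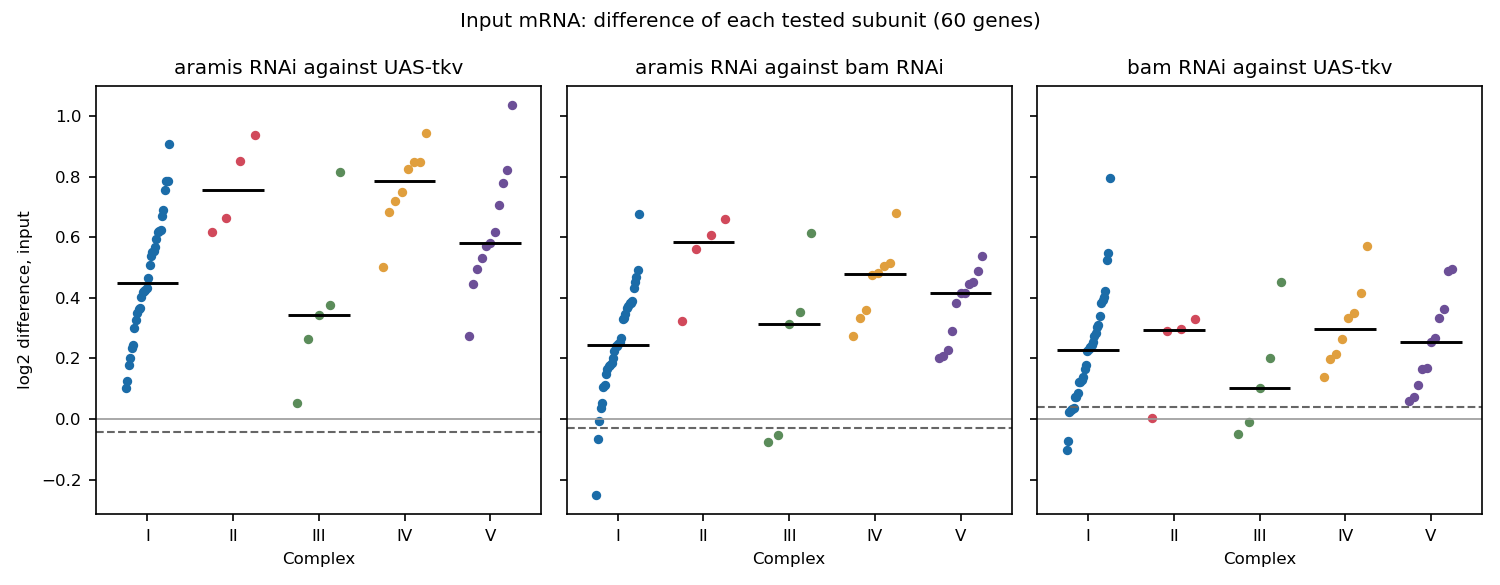
Log2 difference in input (vertical axis) of each of the 60 tested subunits by complex (horizontal axis) for 3 pairs of genotypes, with a bar at the complex median and a dashed line at the median of all 9745 genes. Between aramis RNAi and UAS-tkv every point lies above 0 with TMM scaling (39 of 60 with library totals), with medians from 0.34 (complex III) to 0.79 (complex IV), and none passed the test.

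Against bam RNAi, aramis RNAi input had 55 of 60 subunits above 0 and a median log2 difference of 0.33, and with library totals 31 of 60 and a median of 0.01. The edgeR test called 0 subunits (0.944% of all genes were called higher), 1, SdhB (0.66 ± 0.26), had an unadjusted p under 0.05 (10.2% of all genes) and DESeq2 called 0. Between bam RNAi and UAS-tkv the median was 0.23, with 56 of 60 above 0 (43 with library totals), and edgeR called 0 (0.0308% of all genes), with 0 at an unadjusted p under 0.05 (3.52% of all genes) and 0 by DESeq2. These comparisons share their libraries. Their values depend on the bam RNAi input replicates. Without bam RNAi input replicate 1 the medians were -0.00 and 0.52, and without replicate 2 they were 0.75 and -0.15.

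To measure translational efficiency, polysome libraries were set against input libraries within each genotype. These ratios are of TMM-scaled counts, while the study took its efficiency from TPM, so the point at which a ratio is 0 differs. In UAS-tkv, most subunit mRNAs had a higher level in polysomes than in input, with a median log2 ratio of 1.23 against -0.01 for all genes, and 57 of 60 were above 0 (56 with library totals). The test called 8 higher and none lower, where 1.97% of all genes were called higher. At an unadjusted p under 0.05 there were 45, against 10.9% of all genes, DESeq2 called 35 (5.58% of all genes), and in 54 the fractions did not overlap (26.5% of all genes). The count of calls is not stable: it was 0 without UAS-tkv input replicate 1, input replicate 2 or polysome replicate 2, and 5 without polysome replicate 1, although the median stayed between 1.05 and 1.36. With a block for each lysate, taken as input and polysome libraries of 1 genotype and replicate number, 10 were called (1.61% of all genes), which left out ATPsynF (adjusted p = 0.0568) and took in ND-30, ND-AGGG and ND-B16.6.

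The largest ratios past the test were in complex IV. COX8, a small subunit of the cytochrome c oxidase membrane part, lies at chr3L:21538859-21539447 (Ensembl annotation, BDGP6, the sequence of dm6). It stood at 123 and 114 CPM in UAS-tkv input and at 388 and 637 CPM in polysomes, a log2 ratio of 2.11 ± 0.49 (SE; edgeR adjusted p = 0.027). COX7C, another small subunit, stood at 160.2 and 205 CPM in input and at 648 and 891 CPM in polysomes (2.08 ± 0.56, adjusted p = 0.0457). Both polysome libraries were above both input libraries for each gene. The exons of COX7C share 15.7% of their bases with oys on the other strand, while those of COX8 share none.

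UQCR-11 of complex III (chr3L:25120709-25126171) rose as well, but its value rests on a single library. It stood at 77.5 and 83.1 CPM in input and at 156 and 495 CPM in polysomes, a log2 ratio of 2.02 ± 0.45 (edgeR adjusted p = 0.0231). Replicate 2 of the polysomes was far above replicate 1, and without it the ratio was 0.96 (adjusted p = 0.15). In complex V only ATPsynF was called. Its polysome libraries, at 854 and 862 CPM, were close to each other and above its input libraries at 275 and 272 CPM (1.65 ± 0.44, adjusted p = 0.0441).

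The 4 called subunits of complex I are all accessory, as are most of its tested subunits. Accessory subunits surround the core that carries electrons and pumps protons. ND-B22 (chr2L:13370103-13371110) stood at 99.8 and 100.4 CPM in UAS-tkv input and at 249 and 282 CPM in polysomes (log2 ratio 1.41 ± 0.35, edgeR adjusted p = 0.0341). ND-ASHI (chrX:6677262-6679118) went from 81.5 and 97.5 CPM to 208 and 246 CPM (1.34 ± 0.35, adjusted p = 0.0389). For both genes the polysome values were more than the replicate spread above the input values. ND-13A (chr2L:5099177-5100288) went from 77.6 and 84.6 CPM to 182 and 228 CPM (1.34 ± 0.31, adjusted p = 0.0251). ND-B14 went from 41.4 and 47.9 CPM to 89.5 and 131 CPM (1.30 ± 0.28, adjusted p = 0.0196, the lowest of any subunit). All 8 called genes lost their call without UAS-tkv input replicate 1, input replicate 2 or polysome replicate 2, where their highest adjusted p was 0.161 to 0.243, with ratios that stayed above 0.

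A few subunits had ratios near 0 with TMM scaling. In TPM their UAS-tkv means were lower in polysomes than in input. They went from 275 to 179 for ND-49, 149 to 95.3 for SdhA, 2893 to 1830 for ATPsynC and 1494 to 1256 for ATPsynbeta. ND-49, a core subunit whose mammalian counterpart helps to bind ubiquinone, stood at 225 and 247 CPM in UAS-tkv input and at 182 and 252 CPM in polysomes, with overlapping fractions and a log2 ratio of -0.12 ± 0.26 (edgeR adjusted p = 0.818). SdhA stood at 226 and 216 CPM in input and at 226 and 161 CPM in polysomes (-0.19 ± 0.26, adjusted p = 0.696). The membrane anchor SdhC, of the same complex, went from 125 and 139 CPM to 384 and 447 CPM (1.65 ± 0.51, adjusted p = 0.0659). Within complex II the catalytic subunits had a median ratio of 0.19 and the anchors one of 1.5, on 2 genes each. ATPsynC had 2924 and 2898 CPM in input against 2478 and 2651 CPM in polysomes (-0.18 ± 0.39, adjusted p = 0.823), lower in both libraries, and ATPsynbeta gave 0.23 ± 0.35 (adjusted p = 0.731). In input these are the subunits of complex V with the highest TPM. By complex, the medians were 1.34 for complex I, 0.96 for complex II, 0.86 for complex III, 1.19 for complex IV and 0.75 for complex V. Core subunits of complex I had a median of 1.05 (7 genes) and its accessory subunits one of 1.34 (25 genes).

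In bam RNAi the median ratio was 1.17 and 55 of 60 subunits were above 0 (-0.15 for all genes). No subunit was called by edgeR (0% of all genes were called higher), while 40 had an unadjusted p under 0.05 (9.25% of all genes), DESeq2 called 33 (7.61% of the genes it tested), and in 35 the fractions did not overlap (19% of all genes). Much of this rests on polysome replicate 1. ATPsynO, which links the head of the ATP synthase to its stator, stood at 285 and 504 CPM in input and at 3333 and 689 CPM in polysomes, and SdhC at 102 and 221 CPM in input and at 961 and 274 CPM in polysomes. In both genes replicate 1 was several times above replicate 2. Without polysome replicate 1 the median ratio was 0.39 with 0 calls, and without replicate 2 it was 1.63 with 42 calls.

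In aramis RNAi the polysome libraries were closer to input. The median ratio was 0.25, against 0.00 for all genes, and 44 of 60 subunits were above 0 (55 with library totals). The edgeR test called 0 (0% of all genes), 2, ND-B14 and UQCR-11, were higher at an unadjusted p under 0.05 (2.1% of all genes), 1, ND-75, was lower, and DESeq2 called 0. In 31 both polysome libraries were above both input libraries (23.9% of all genes), and in 7 both were below, a count not set against all genes. Without aramis RNAi polysome replicate 2 the median was 0.07 with 34 of 60 above 0, and without replicate 1 it was 0.39 with 50 of 60 above 0. COX7C, whose polysome libraries in UAS-tkv lay well above input, stood at 282 and 331 CPM in aramis RNAi input and at 409 and 667 CPM in polysomes (log2 ratio 0.81 ± 0.55, edgeR adjusted p = 0.983). ATPsynO stood at 550.1 and 525 CPM in input and at 629 and 872 CPM in polysomes, where UAS-tkv had 349.7 and 351 CPM in input and 1384 and 1302 CPM in polysomes. Its aramis RNAi polysome libraries were below those of UAS-tkv, and its aramis RNAi input libraries above. By complex, the medians were 0.31, 0.12, -0.02, 0.24 and -0.01 for complexes I to V.

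**Figure D3:**
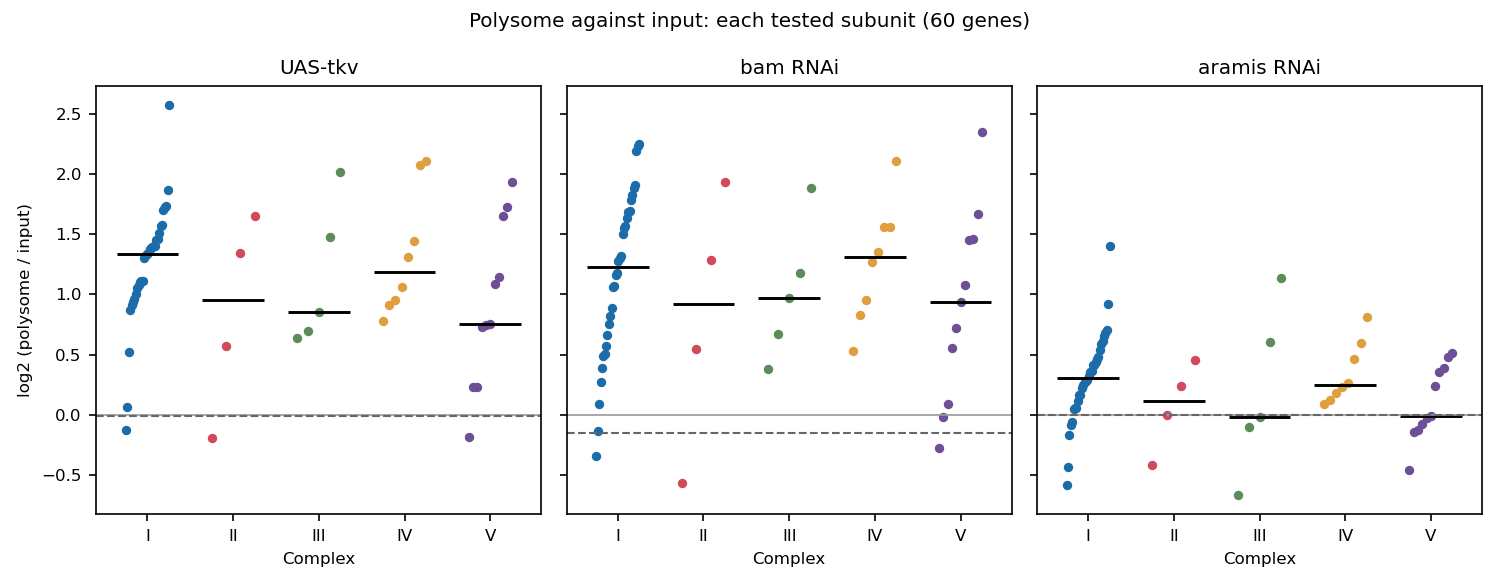
Log2 ratio of polysome to input (vertical axis) of each of the 60 tested subunits by complex (horizontal axis) in the 3 genotypes, with a bar at the complex median and a dashed line at the median of all 9745 genes. In UAS-tkv and bam RNAi the medians over all 60 are 1.23 and 1.17, and in aramis RNAi 0.25. The bam RNAi values fall to a median of 0.39 without polysome replicate 1.

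The difference in translational efficiency was tested directly, as the interaction of fraction and genotype. Between aramis RNAi and UAS-tkv, 59 of 60 subunits had a lower polysome-to-input ratio in aramis RNAi (55 of 60 with library totals), with a median log2 difference of -0.88 against 0.05 for all genes. No single subunit passed the test: edgeR called 0 (0% of all genes were called lower), DESeq2 called 0, and 7 were lower at an unadjusted p under 0.05, against 2.02% of all genes. They were ND-13A, ND-24, ND-B17, ND-B18 and ND-B22 of complex I, UQCR-C2 of complex III and COX8 of complex IV. All 7 were past the threshold of the study, over 2-fold at an unadjusted p under 0.05, beside 1.79% of all genes. It was applied here to the edgeR fit, while the study applied it to a DESeq2 test. The smallest adjusted p was 0.652, and the median SE of a subunit was 0.60, so that a difference of the median size lay within 1.96 SE for a single gene. The median ran from -1.10 without aramis RNAi polysome replicate 2 to -0.69 without its replicate 1.

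The medians by complex were -0.96, -0.84, -0.87, -0.82 and -0.76 for complexes I to V. ND-B17, an accessory subunit of complex I (chr2L:15749319-15751078), had the lowest value. It stood at 94.5 and 109 CPM in UAS-tkv input and at 180.5 and 259 CPM in UAS-tkv polysomes, but at 159.8 and 165 CPM in aramis RNAi input and at 127 and 113 CPM in polysomes. Polysomes were above input in both UAS-tkv replicates and below it in both aramis RNAi replicates, and the difference was -1.54 ± 0.45 (SE; edgeR adjusted p = 0.652, unadjusted p = 0.00537). UQCR-C2, a core protein of complex III (chr3L:16584124-16586111), had the same pattern. Its values were 324 and 304 CPM in UAS-tkv input, 585 and 552 CPM in UAS-tkv polysomes, 602 and 502 CPM in aramis RNAi input and 308 and 389 CPM in aramis RNAi polysomes (-1.52 ± 0.57, adjusted p = 0.652). COX8 (-1.51 ± 0.67), ATPsynO (-1.46 ± 0.80) and SdhC (-1.20 ± 0.70) were the lowest of their complexes.

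The differences nearest to 0 were in SdhA, ATPsynbeta and ND-49, whose ratios within UAS-tkv were near 0 too with TMM scaling. ND-49 was the only subunit above 0, at 0.04 ± 0.36 (edgeR adjusted p = 0.994), and in aramis RNAi it stood at 255 and 259.6 CPM in input and at 237 and 247 CPM in polysomes. Its 12 libraries ran from 182 to 261 CPM, and its difference fell below 0 without UAS-tkv input replicate 2 or polysome replicate 1. SdhA (-0.23 ± 0.37) and ATPsynbeta (-0.24 ± 0.49) were next, and both were above 0 with library totals. UQCR-Q (-0.72 ± 0.74) and COX5B (-0.69 ± 0.49) were the highest of complexes III and IV.

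**Figure D4:**
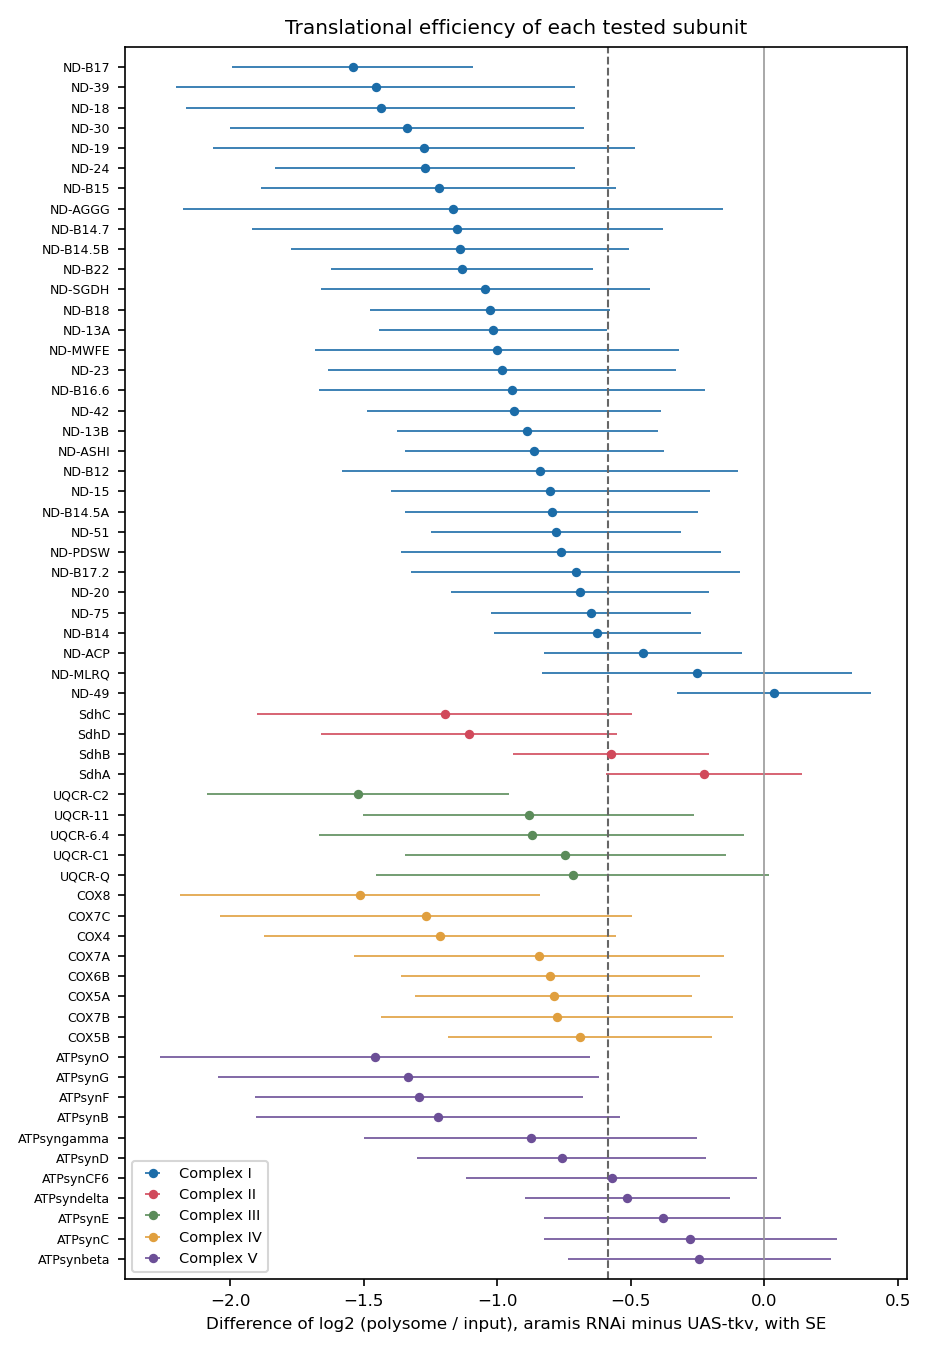
Difference in log2 polysome-to-input ratio between aramis RNAi and UAS-tkv (horizontal axis, with SE) for each of the 60 tested subunits (vertical axis), ordered within complexes, with a dashed line at the median of all genes with under 1000 exon bases (-0.59). All points but ND-49 lie below 0 (55 of 60 with library totals), from -1.54 to 0.04, and none passed the test.

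Against bam RNAi the median difference in aramis RNAi was -0.93, with 54 of 60 below 0 (48 with library totals). The edgeR test called 0 (0% of all genes were called lower), DESeq2 called 0, and 6 were lower at an unadjusted p under 0.05 (2.04% of all genes). All 6 were past the threshold of the study as applied to the edgeR fit (1.99% of all genes). Without bam RNAi polysome replicate 1 the median was -0.18, and without replicate 2 it was -1.41 with 20 calls. Between bam RNAi and UAS-tkv the median was -0.01, with 26 of 60 above 0 (27 with library totals). There edgeR called 0 (0.0103% of all genes were called higher), DESeq2 called 0, 0 were higher at an unadjusted p under 0.05 (1.59% of all genes), and 1, UQCR-11, was lower. That median was -0.78 without bam RNAi polysome replicate 1 and 0.45 without replicate 2, and it was -0.25 and 0.35 without bam RNAi input replicates 1 and 2, so its direction rests on those libraries. These comparisons share their control libraries.

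The subunits have short exon lengths, with a median of 879.5 exon bases (417 to 3817) against 2000 for all tested genes. This length joins the exons of all transcripts of a gene and can exceed that of a single mRNA. Over all genes the polysome ratio varied with it. In UAS-tkv the median ratio of all tested genes was 0.77 under 1000 exon bases (1663 genes), 0.35 from 1000 to 2000 bases (3106 genes) and -0.21 from 2000 to 4000 bases (2908 genes). The subunits had 1.34 under 1000 bases (39 genes), 1.08 from 1000 to 2000 bases (17 genes) and 0.15 above (4 genes). The Spearman correlation of ratio and exon length in UAS-tkv was -0.37 over the 60 subunits and -0.57 over 9541 genes, which share their libraries and are not independent. For aramis RNAi against UAS-tkv the median difference in translational efficiency was -0.59 over all genes under 1000 bases and -1.0 over the subunits of that length. From 1000 to 2000 bases the values were -0.25 and -0.87. In both classes the median of the subunits lay beyond that of all genes of their length. The part of mRNA length in the difference was not tested.

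**Figure D5:**
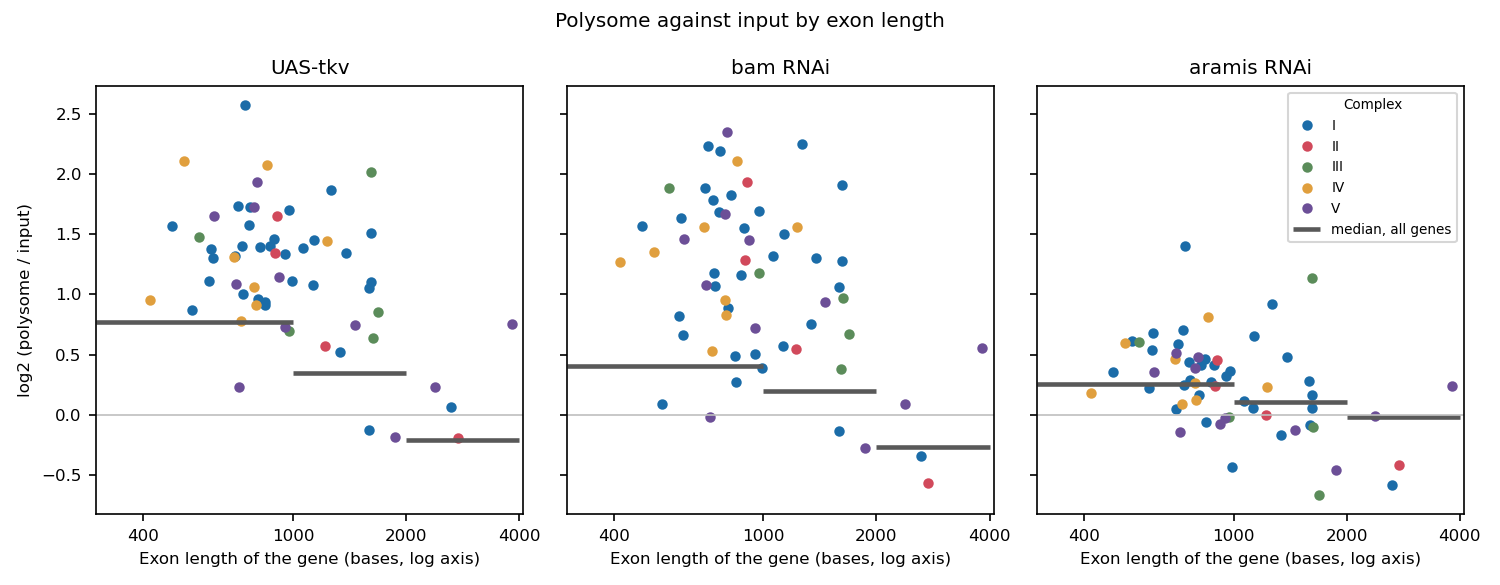
Log2 ratio of polysome to input (vertical axis) against exon length (bases, log axis) for the 60 tested subunits, coloured by complex, in the 3 genotypes, with grey lines at the median of all tested genes under 1000 bases, from 1000 to 2000 and from 2000 to 4000 bases. In UAS-tkv the grey lines fall from 0.77 to 0.35 to -0.21, and the subunits have medians of 1.34, 1.08 and 0.15 in the same classes.

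Other lists of genes with mostly short exon lengths also had medians below 0. The median difference in translational efficiency between aramis RNAi and UAS-tkv was -1.82 for 83 cytosolic ribosomal proteins and -0.73 for 70 mitochondrial ribosomal proteins, which are translated in the cytosol as the subunits are. Over the 7 subunits that the symbol rule misses it was -0.83, with 7 of 7 below 0 and 0 called by edgeR or at an unadjusted p under 0.05. They are RFeSP, Cyt-c1 and ox of complex III, levy and cype of complex IV, and blw and sun of complex V. In UAS-tkv, cype went from 167 and 151 CPM in input to 508 and 672 CPM in polysomes (1.89 ± 0.44, edgeR adjusted p = 0.0266), and 6 of the 7 were above 0.

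The enzymes that feed the chain gave other values, and their exon lengths were not set against those of the subunits. The median difference in translational efficiency of 13 genes of the TCA cycle and pyruvate dehydrogenase was 0.33, with 8 of 13 above 0, and their median polysome ratio in UAS-tkv was -0.31. In input they had a median of 0.54 in aramis RNAi against UAS-tkv and 12 of 13 above 0. Mdh2, the mitochondrial malate dehydrogenase, rose from 412 and 448 CPM to 943 and 873 CPM (log2 difference 1.08 ± 0.34, edgeR adjusted p = 0.0441). It was the only one of the 13 called, where 10.1% of all genes were called higher.

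Factors that maintain and express the mitochondrial genome were also compared in input. In aramis RNAi against UAS-tkv all 10 were below 0, with a median log2 difference of -0.99, and 4 were called lower, PolG1, PolrMT, srl and mtDNA-helicase (-1.47, edgeR adjusted p = 0.0411), where 8.73% of all genes were called lower. PolG1, the mitochondrial DNA polymerase, fell from 61.0 and 47.6 CPM to 13.1 and 19.7 CPM (-1.73 ± 0.36, edgeR adjusted p = 0.00824). PolrMT, the mitochondrial RNA polymerase, fell from 57.1 and 52.1 CPM to 20.8 and 25.6 CPM (-1.24 ± 0.35, adjusted p = 0.0314). The gene srl, the fly counterpart of the PGC-1 coactivators, fell from 164 and 107 CPM to 40.5 and 47.0 CPM (-1.63 ± 0.49, adjusted p = 0.0377). The groups did not overlap in any of the 10, called or not, which was not set against all genes. The germline markers given above fell between the same libraries.

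Of the 5 genes for carriers and porin, 1 was called lower and 1 higher in aramis RNAi input against UAS-tkv input. Of all genes, 8.73% were called lower and 10.1% higher. Ant2, an ADP/ATP translocase, fell from 134 and 130.1 CPM in UAS-tkv input to 28.2 and 23.2 CPM in aramis RNAi input (log2 difference -2.36 ± 0.43, edgeR adjusted p = 0.00508). Mpcp1, a phosphate carrier, rose from 31.8 and 49.2 CPM to 177 and 165 CPM (2.08 ± 0.47, adjusted p = 0.0123). The groups of both genes stood apart, and in bam RNAi input Ant2 was at 108 and 114 CPM. Mitochondrial ribosomal proteins had a median of -0.48 in this comparison, with 65 of 70 below 0 and 2, mRpL37 and mRpS30, called lower, a smaller share than the 8.73% of all genes.

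The testis-type paralogs together had few counts. The exons of COX5BL are covered in full by Trmt6 on the opposite strand, and 67.0% of those of COX6AL2 by Ir75d on the same strand. The counts of COX5BL and COX6AL2 may therefore miss their own reads. Of the 24, 10 had 0 counts in all 12 libraries, 5 had 1 to 9 counts and 5 had 10 to 99 counts over all libraries, and all 24 together took 0.00175% to 0.00651% of a library's counts. The 7 that passed the filter were ND-24L, COX4L, COX7AL, COX7AL2, COX7CL, ATPsynbetaL and ATPsynepsilonL, and none was called in any comparison. ATPsynepsilonL was the most abundant, with 25.6 and 11.1 CPM in UAS-tkv input, 52.1 and 38.9 CPM in UAS-tkv polysomes and 9.90 to 17.5 CPM in the other 8 libraries. Both UAS-tkv polysome libraries stood above all others, with a log2 ratio of 1.31 ± 0.45 to input (edgeR adjusted p = 0.0945). The higher UAS-tkv input library, at 25.6 CPM, also lay above the 8 libraries of the other genotypes.

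COX4L had 25 and 32 counts in UAS-tkv input, 24 and 47 in bam RNAi input and 10 and 2 in aramis RNAi input, where its counterpart COX4 had 2593 to 7769 counts in the 6 input libraries. Among the inputs the counts of COX4L were lowest in aramis RNAi, but the difference of -2.29 ± 1.13 on the log2 scale did not pass the test (edgeR adjusted p = 0.189). The other 5 stayed at 0 to 64 counts a library, where the counterparts ATPsynbeta and COX7C had 7628 to 39355 and 1268 to 8039 counts. Since ND-24L had 25 counts in bam RNAi polysome replicate 1 and at most 8 elsewhere, its fitted ratios rest on that library. Cyt-c-d, the cytochrome c known from the male germline, had 0 to 21 counts.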

How the data were processed

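The authors made poly(A)-selected, strand-marking libraries, aligned the reads to dm6 with HISAT2 2.1.0 and counted them per gene with featureCounts 1.4.6. The strand setting, annotation release and handling of multi-mapping reads are not given in the sources used here. The deposited values were raw counts per gene and library, with no normalization by the authors. Of the identifiers, 16647 were matched to a symbol and 376 were not (4.13% to 6.46% of the counts of a library).

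All 12 libraries were fitted in one model with a term for each of the 6 groups (R 4.3.3, edgeR 4.0.16, limma 3.58.1), with TMM scaling, the filterByExpr filter (9745 genes kept, 7278 removed) and the quasi-likelihood test with Benjamini-Hochberg adjustment over all genes kept. Contrasts were input between genotypes, polysome against input within a genotype, and the difference of those ratios (translational efficiency). A gene was called at an adjusted p under 0.05. DESeq2 1.42.0, its size factors, library totals, no filter, the libraries of the groups compared alone, a replicate block (by lysate for comparisons of fractions) and leaving out each library were alternatives, and TPM replaced shares of counts for summed levels. The edgeR model of all 12 libraries was tried on simulated data for aramis RNAi against UAS-tkv in input. The other contrasts and the alternative fits were not tried in that way.

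Named subunits were those called, the highest and lowest of each complex for aramis RNAi against UAS-tkv in input and in translational efficiency among subunits with a mean of at least 10 CPM, the most abundant of each complex, the paralogs that passed the filter with their counterparts, and the subunits that did not pass. SdhB and the genes named in other lists were chosen after their values were seen, as were the groups of subunits within a complex. The members and lists were chosen with earlier results of these data known. The depth, 3131667 to 15039925 counts, limits precision mostly for the paralogs. The lists of fat body (4 genes), midgut (4 genes), follicle and escort cell (4 genes) and testis markers (7 genes) were also summed. In UAS-tkv against aramis RNAi input they spanned 36.5 to 146 against 335 to 377 CPM for fat body, 1.77 to 107.8 against 32.3 to 146 CPM for midgut, 826 to 1005 against 1999 to 2104 CPM for follicle and escort cells (where tj went the other way, log2 difference -1.03, edgeR adjusted p = 0.0341), and 8.07 to 11.7 against 1.23 to 2.01 CPM for testis, of whose markers 3 were at 0. The 5 assembly factors tested had a median log2 difference of -0.50 in input and -0.50 in translational efficiency, with 0 called by edgeR.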

Additional observations from a re-analysis of the deposited data

Results flagged for a closer look

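ND-B17 and UQCR-C2 had opposite polysome-to-input differences in the 2 genotypes. Both UAS-tkv polysome libraries lay above both UAS-tkv input libraries, and both aramis RNAi polysome libraries lay below both aramis RNAi input libraries. The log2 difference between these ratios was -1.54 for ND-B17 and -1.52 for UQCR-C2, and it did not pass the edgeR test in either (adjusted p = 0.652).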

How the results depend on the processing

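With 2 libraries a group and 6 residual degrees of freedom, calls of single subunits depended on the spread that was assumed, and medians over the subunits depended on single libraries in most comparisons. When a library was left out, the median polysome ratio ran from 0.39 to 1.63 in bam RNAi and from 0.07 to 0.39 in aramis RNAi, and the median efficiency difference from -1.41 to -0.18 for aramis RNAi against bam RNAi and from -0.78 to 0.45 for bam RNAi against UAS-tkv. It kept within 1.5 times the full value for UAS-tkv polysomes (1.05 to 1.36) and, for aramis RNAi against UAS-tkv, in input (0.43 to 0.63) and in efficiency (-1.10 to -0.69). Among counts of called subunits, the input comparison of aramis RNAi with UAS-tkv gave 2 with no filter and 38 with the groups compared alone. Polysome against input in UAS-tkv gave 5 with DESeq2 size factors, 39 with no filter, 31 with the groups compared alone and 35 with DESeq2, and in bam RNAi it gave 34 with no filter and 33 with DESeq2. Translational efficiency in aramis RNAi against bam RNAi gave 2 with no filter. Leaving out one library at a time, the counts ran from 0 to 5 in UAS-tkv, from 0 to 42 in bam RNAi and from 0 to 20 for that translational efficiency. In input, the median of aramis RNAi against UAS-tkv was 0.12 with library totals, that of aramis RNAi against bam RNAi ran from -0.0024 to 0.75 and that of bam RNAi against UAS-tkv from -0.15 to 0.52 when a library was left out. With library totals, the input differences of ATPsynbeta (-0.17), ND-42 (-0.34) and UQCR-6.4 (-0.39) and the efficiency differences of ATPsynbeta (0.11) and SdhA (0.12) changed sign, as the scaling moved all genes. Leaving out a library gave -0.028 to 0.16 for ND-42 and -0.049 to 0.066 for UQCR-6.4 in input, and -0.15 to 0.29 for ND-49 and -0.45 to 0.069 for SdhA in translational efficiency. The cause of the other changes was not tested. Among single genes, ATPsynF, COX7C and ND-ASHI lost their call with DESeq2 size factors, and ND-13A, ND-B14 and UQCR-11 with library totals. Summed levels of complexes moved beyond their spread in 6 of 20 values when TPM replaced shares of counts.

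Replicate numbers were shared between groups, and input was a part of the polysome lysate, but the labels do not say that a number marks 1 lysate. The deviations of same-numbered input and polysome libraries correlated at 0.54 for UAS-tkv, -0.00288 for bam RNAi and 0.39 for aramis RNAi. The values of UAS-tkv and aramis RNAi were above those of all other pairs of groups (0.19 at most), and that of bam RNAi was not. As pairing did not show in every genotype, the tests were made without a block, with the block as an alternative. The replicate block was the number for input and the lysate (genotype and number) for the other comparisons. With the lysate block, which left 3 residual degrees of freedom, 10 subunits were called in UAS-tkv polysomes (8 without it), with a median of 1.21, and the median difference in translational efficiency was -0.86. ATPsynF was not called in that fit (adjusted p = 0.0568), and the block gave 0 calls in the other comparisons.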
